A study of Mus musculus with 4 samples.

Results

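Major histocompatibility complex (MHC) class I molecules display peptides from inside a cell on its surface, and 10 genes of that route were followed here across the CD45+ cells of injured mouse brain. They were B2m, which encodes the light chain beta-2-microglobulin, the heavy chain genes H2-K1, H2-D1, H2-Q7, H2-Q4 and H2-T23, the peptide transporter genes Tap1 and Tap2, the loading chaperone gene Tapbp (tapasin) and the immunoproteasome gene Psmb8. The genes were taken by symbol from 32285 genes counted in 8 matrices of single-cell RNA sequencing (scRNA-seq), and all 10 were found in each matrix. The rule itself uses symbols and no measured value, though earlier results of these data were known when the genes were chosen. Their levels were compared by brain region, by microglial state and by cell class among 24939 kept cells of 29190, of which 18927 were microglia-like.

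Both the thalamus and the hippocampus (HPC) were taken from C57B6/J mice with cortical brain injury, a surgical removal of sensory and motor cortex, and live CD45+ cells were sorted. Every mouse had been injured, so the regions are compared with each other and never with uninjured tissue. Each region had 4 tagged sets of cells, told apart by Cell Multiplexing Oligos (DNA tags added before pooling), and each was taken as 1 mouse, which the labels do not state. The labels give neither the age of the mice nor the time after injury. Because 1 separate 10x Genomics 3′ library was made per region, a region effect cannot be told apart from a library effect. CD45 is a surface protein of leukocytes and microglia.

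In the class I route, proteasomes cut cytosolic proteins into peptides. The transporter formed by TAP1 and TAP2 carries those peptides into the endoplasmic reticulum, where tapasin, calreticulin and ERp57 hold an empty heavy chain with beta-2-microglobulin until a peptide binds. Interferons replace the constitutive catalytic subunits of the proteasome with PSMB8, PSMB9 and PSMB10 and raise the whole route, in part through IRF1 and the transactivator NLRC5. The heavy chains H2-K and H2-D present to CD8+ T cells, H2-Q7 belongs to the Qa-2 group, and H2-T23 encodes Qa-1, a ligand of the CD94/NKG2 receptors of natural killer (NK) cells. In undisturbed brain, microglia are known to carry little class I protein.

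Of the 10 genes, 9 lie in the MHC on chromosome 17 within 2116.957 kb (GRCm38, GENCODE annotation), and B2m lies on chromosome 2. Tap1 (chr17:34187553-34197225, + strand), Psmb8 (chr17:34197721-34201454, +) and Tap2 (chr17:34203527-34216321, +) are neighbours. Tap1 overlaps Psmb9, on the opposite strand, by 212 bases. H2-K1 lies at chr17:33996017-34000347 (-), H2-D1 at chr17:35262730-35267499 (+), H2-Q4 at chr17:35379617-35385290 (+), H2-Q7 at chr17:35439155-35443773 (+), H2-T23 at chr17:36029773-36032855 (-) and Tapbp at chr17:33915899-33929292 (+). B2m spans chr2:122147686-122153083 (+). Heavy chain genes resemble one another, so reads can be split or lost between copies. In the last 500 bases of their transcripts, 8.93% of the 90-base stretches of H2-D1, 7.30% of those of H2-Q4, 4.0% of those of H2-T23 and 2.31% of those of H2-K1 also occurred in another gene, while the other 6 genes shared 0%. For H2-K1 and H2-D1 the other genes included further heavy chain genes, among them H2-Q7 outside its own last 500 bases. For H2-T23 they were Rab33b and Hook2, and for H2-Q4 they were H2-Q6 and genes of other families. Values of these genes are uncertain for that reason, by an amount that was not measured.

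Promoter sequence is shown because 4 of the heavy chain genes carry nearly the same block before their RefSeq start. Higher levels were not particular to these 4, since all 10 genes rose in the interferon-like microglia described below. Any part of the block in these changes was not tested. RefSeq promoters (GRCm38.p6) were given for 9 of the 10 genes, and the 250 bases upstream were searched on both strands. An NF-kappaB site, the first capitals of the 4 upper windows, occurred in 4 of the 9 genes and in 0.2405% of all 32851 promoters. The letters AANNGAAA, a core of interferon regulatory factor (IRF) sites, occurred in 6 of the 9 genes against 21.3% of all promoters. The letters TTCNNNGAA of a gamma-activated site were found in Psmb8 of the 9 genes, against 7.02% of all promoters. TGACG was found in 6 of the 9 genes (17.8% of promoters) and CCAAT in 8 (33.8%). The motifs were chosen with the sequences in view, the heavy chain genes are related copies, and a match is a description of letters, not a site of binding. RefSeq starts can differ from the GENCODE spans given above. The windows of H2-D1 and H2-T23 lie within those spans, and the windows of H2-D1, H2-Q4 and H2-T23 overlap annotated exons. The windows below hold 30 bases each, 5′ to 3′ on the strand of the gene, with both kinds of match in capitals (an IRF core on the other strand appears as its reverse complement).
H2-K1, chr17:34000429-34000458 (-): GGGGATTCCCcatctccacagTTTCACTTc
H2-D1, chr17:35262923-35262952 (+): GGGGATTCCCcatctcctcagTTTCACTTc
H2-Q4, chr17:35379443-35379472 (+): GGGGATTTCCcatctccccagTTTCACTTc
H2-Q7, chr17:35439022-35439051 (+): GGGGATTCCCatctccccagTTTCACTTct
B2m, chr2:122147539-122147568 (+): taagaacatgaAACTGAAAatgggaaagtc
H2-T23, chr17:36032807-36032836 (-): gatcctactgcTTTCTCTTtcataaagaca

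The whole upstream stretch of H2-Q7, the gene with the largest fitted change in the 3 comparisons with homeostatic-like microglia below, and that of H2-K1 show where the block sits. Capitals mark the same 2 matches, and the last base is the one before the start.
H2-Q7, chr17:35438905-35439154 (+): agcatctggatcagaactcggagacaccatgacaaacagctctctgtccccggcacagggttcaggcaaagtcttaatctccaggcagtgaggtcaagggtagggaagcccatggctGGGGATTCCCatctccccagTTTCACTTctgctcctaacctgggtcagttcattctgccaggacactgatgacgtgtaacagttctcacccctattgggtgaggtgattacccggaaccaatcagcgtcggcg
H2-K1, chr17:34000348-34000597 (-): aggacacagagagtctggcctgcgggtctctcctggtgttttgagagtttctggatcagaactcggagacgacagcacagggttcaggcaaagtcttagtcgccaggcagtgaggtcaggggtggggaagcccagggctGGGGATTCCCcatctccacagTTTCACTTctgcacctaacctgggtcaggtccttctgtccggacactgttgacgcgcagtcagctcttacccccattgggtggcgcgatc

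Levels are given as unique molecular identifiers (UMIs, 1 per captured RNA molecule) of a gene per 10000 UMIs of all genes, summed over the cells of a class in a set. Fitted log2 changes used further scaling factors (TMM), so they can differ from the changes of these levels. Classes and states were cut by summed marker genes, none of them among the 10 genes, so they are ranges on a score and not clusters. The disease-associated microglia (DAM) limit of 60 per 10000 had 2617 microglia-like cells above it and 1461 within 25% of it, and the interferon limit of 20 had 829 above and 625 near it. Microglia-like cells had a median of 193.8 microglial marker UMIs per 10000, with medians of 0 for T cell, NK cell, B cell, monocyte, dendritic cell and border macrophage markers and 4.16 for neutrophil markers. The class was cut with upper limits on all of these other markers, so their low values were set by the limits. Kept cells held 9789875 to 26636526 UMIs per set, and their median was 4261.5 to 4657 UMIs per cell. Sets of the same region shared 0 cell barcodes, and 65 barcodes occurred in both regions. HPC set 1 stood apart from the other HPC sets: its homeostatic-like microglia had 21.6 B2m UMIs per 10000 against 13.2 to 15.4 in the other 3, its microglia-like cells had 26.9 DAM marker UMIs per 10000 against 17.1 to 20.2, and it held 858 T- or NK-like cells against 34 to 232.

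Interferon-like microglia had higher levels of all 10 class I genes than the homeostatic-like microglia of the same sets. Homeostatic-like cells (11829) carried the resting markers such as P2ry12 and Tmem119 with few DAM or interferon markers, and interferon-like cells (458) carried interferon-stimulated markers such as Ifit3 and Isg15 with few DAM markers. B2m, the subunit shared by every class I molecule, measured 19.3, 17.8, 14.5 and 18.1 UMIs per 10000 in homeostatic-like cells of thalamus sets 1 to 4 and 21.6, 15.4, 13.2 and 14.6 in those of HPC sets 1 to 4. In interferon-like cells B2m measured 30.9, 25.9, 29.4 and 41.4 in thalamic sets and 27.0, 27.6, 19.3 and 21.7 in HPC sets. It was higher in 8 of 8 sets, with no overlap in the thalamus, while in the HPC the homeostatic-like value of set 1 lay above the interferon-like value of set 3. The fitted change was 0.78 on the log2 scale (SE 0.06, adjusted p = 1.65e-17).

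The heavy chain genes rose together in the interferon-like state. H2-Q7 measured 0.828, 0.705, 0.385 and 0.814 UMIs per 10000 in the homeostatic-like cells of the thalamus and 1.10, 0.590, 0.399 and 0.520 in those of the HPC. Its interferon-like levels were 1.92, 1.46, 1.5 and 3.57 in thalamic sets and 1.72, 2.01, 1.26 and 2.22 in HPC sets. No interferon-like set overlapped with a homeostatic-like set for H2-Q7, and its log2 change was 1.62 (SE 0.12, adjusted p = 2.5e-20). The changes were 1.11 for H2-T23, 1.05 for H2-Q4, 0.96 for H2-K1 and 0.87 for H2-D1. Each was higher in 8 of 8 sets except H2-Q4, which was higher in 7 of 8, with HPC set 3 at 0.199 in interferon-like cells and 0.260 in homeostatic-like cells.

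Of the transporter genes, Tap1 showed the larger fitted difference between these states. Tap1 measured 0.410, 0.366, 0.315 and 0.396 UMIs per 10000 in thalamic homeostatic-like cells and 0.439, 0.336, 0.307 and 0.359 in those of the HPC. In interferon-like cells it measured 0.861, 1.10, 0.912 and 1.13 in thalamic sets and 1.05, 0.976, 1.13 and 1.24 in HPC sets. The states did not overlap in either region, with a log2 change of 1.56 (SE 0.13, adjusted p = 5.02e-17). Tap2, the partner of Tap1 in the transporter, rose by 0.58 (SE 0.13, adjusted p = 0.000609), from 0.549, 0.559, 0.575 and 0.599 to 0.778, 0.852, 0.730 and 0.985 in the thalamus. In the HPC, Tap2 went from 0.527, 0.567, 0.515 and 0.563 to 0.672, 0.631, 0.930 and 0.815. It was higher in 8 of 8 sets, and the states did not overlap. Psmb8 rose by 0.69 and Tapbp by 0.65 on the log2 scale.

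Thus 10 of 10 class I genes passed in this comparison, in which 7.81% of the 10224 genes tested were called higher, and 10 passed under each of 16 alternatives. The median log2 change of the 10 genes was 0.92, beside -0.02 over all genes tested. Interferon markers averaged 41.7 (thalamus) and 50.1 (HPC) UMIs per 10000 in interferon-like cells, against 2.11 and 1.47 in homeostatic-like cells, and that difference was set by the limits. DAM markers, which the limits also held low, averaged 30.1 and 19.5 against 20.1 and 15.7.

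DAM-like microglia had higher levels of 9 of the 10 genes, and Tap2 was the exception. These 1919 cells carried markers such as Spp1, Cst7 and Itgax without an interferon signature. B2m measured 38.8, 31.6, 28.2 and 31.3 UMIs per 10000 in the DAM-like cells of thalamus sets 1 to 4 and 28.0, 26.3, 23.4 and 22.5 in those of HPC sets 1 to 4. These lay above every homeostatic-like value given above, and the log2 change was 0.96 (SE 0.07, adjusted p = 5.01e-14). H2-D1, a classical heavy chain, went from 9.90, 8.80, 6.36 and 9.19 to 21.0, 19.98, 14.2 and 17.6 in the thalamus. In the HPC, H2-D1 went from 10.98, 7.27, 5.58 and 6.98 to 15.6, 12.9, 10.2 and 13.7. It was higher in 8 of 8 sets, with overlap in the HPC alone, where the homeostatic-like level of set 1 exceeded the DAM-like level of set 3. The log2 change was 1.14 (SE 0.07, adjusted p = 7.04e-16).

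The other heavy chain genes differed in how far they moved with the DAM-like state. H2-Q7 rose by 1.30, H2-K1 by 0.99, H2-Q4 by 0.70 and H2-T23 by 0.50 on the log2 scale. H2-T23 was higher in the DAM-like cells of 6 of 8 sets, all 4 thalamic sets included, while HPC sets 1 and 2 had 0.645 and 0.565 in DAM-like cells against 0.736 and 0.655 in homeostatic-like cells. Psmb8 rose by 0.61, Tap1 by 0.53 and Tapbp by 0.49. Tap2 measured 0.509, 0.508, 0.393 and 0.492 in thalamic DAM-like cells and 0.371, 0.308, 0.507 and 0.724 in those of the HPC. It was lower than in homeostatic-like cells in 7 of 8 sets, but the fitted change of -0.05 (SE 0.10) did not pass (adjusted p = 0.713). For H2-T23 the fitted 0.50 lay above the change of its mean level in both regions. That level went from 0.760 to 1.00 in the thalamus and from 0.641 to 0.640 in the HPC. Fits were scaled by TMM factors and levels by total UMIs, and the part of that scaling in the gap was not tested.

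In this comparison 25.1% of 11101 genes tested were called higher, so the 9 called of 10 stand against a large background, and the median log2 change was 0.66 for the 10 genes and -0.01 over all genes tested. The count of 9 held under each of 16 alternatives, among them one without cells poor in the nuclear RNA Malat1, which made up 20.9% of thalamic and 9.45% of HPC DAM-like cells on average and 0.134% and 0.0251% of homeostatic-like cells. HPC sets 2, 3 and 4 held 43, 24 and 38 DAM-like cells, and their Tap1 values rest on 4, 5 and 10 UMIs. Interferon markers averaged 4.50 and 2.48 per 10000 in DAM-like cells of the thalamus and the HPC, against 2.11 and 1.47 in homeostatic-like cells. Their part in the result was not tested by this comparison, and levels at fixed interferon marker content are given further below.

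**Figure D1:**
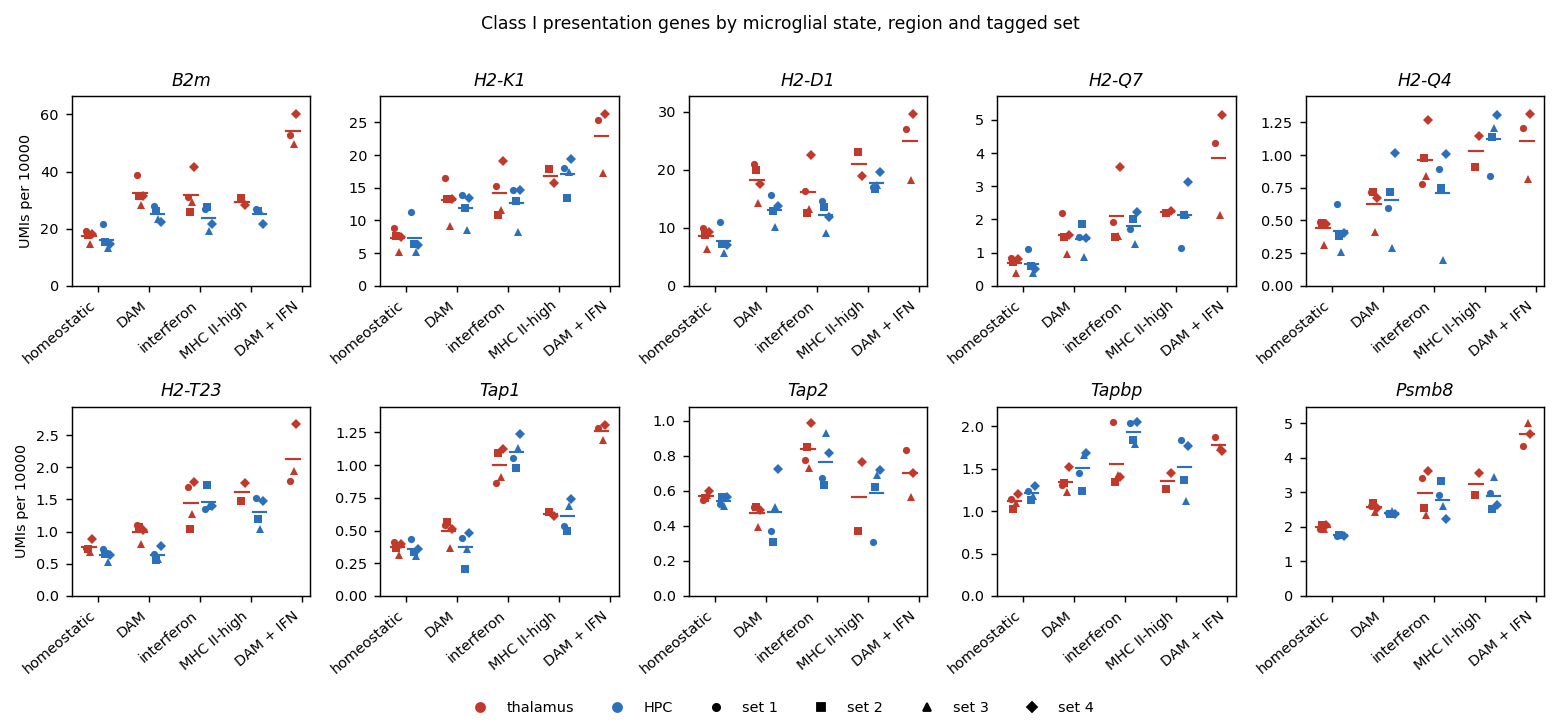
UMIs per 10000 UMIs (vertical axis) of each of the 10 class I genes in homeostatic-like, DAM-like, interferon-like, MHC class II-high and double-positive (DAM + IFN) microglia; each point is 1 tagged set with at least 20 cells (thalamus red, HPC blue, marker shape the set number) and each line the mean over sets. B2m lies between 13.2 and 21.6 in homeostatic-like cells and between 49.7 and 60.2 in double-positive cells, while Tap2 stays between 0.308 and 0.724 in DAM-like cells.

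MHC class II-high microglia, which present peptides to CD4+ T cells by the class II route, also had higher levels of 9 class I genes. The state was compared in 6 sets (thalamus sets 2 and 4 and the 4 HPC sets), as thalamus sets 1 and 3 held 6 and 11 such cells. H2-K1 measured 17.9 and 15.8 UMIs per 10000 in thalamus sets 2 and 4 and 18.0, 13.4, 17.4 and 19.4 in HPC sets 1 to 4. All of these lay above the highest homeostatic-like level, 11.2 in HPC set 1, and the log2 change was 1.34 (SE 0.10, adjusted p = 2.18e-14). H2-Q7 rose by 1.89, H2-Q4 by 1.47, H2-D1 by 1.33 and H2-T23 by 1.13. Tap1 rose by 0.87, B2m and Psmb8 by 0.77 each and Tapbp by 0.43. Tap2 had a log2 difference of 0.18 (SE 0.17, adjusted p = 0.657). In this comparison 5.73% of 10393 genes were called higher. The call of Tapbp was lost without a filter on low counts (adjusted p = 0.0629) and without HPC set 4 (adjusted p = 0.0646). The 3 state comparisons share the homeostatic-like sums, so their agreement is not independent.

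**Figure D2:**
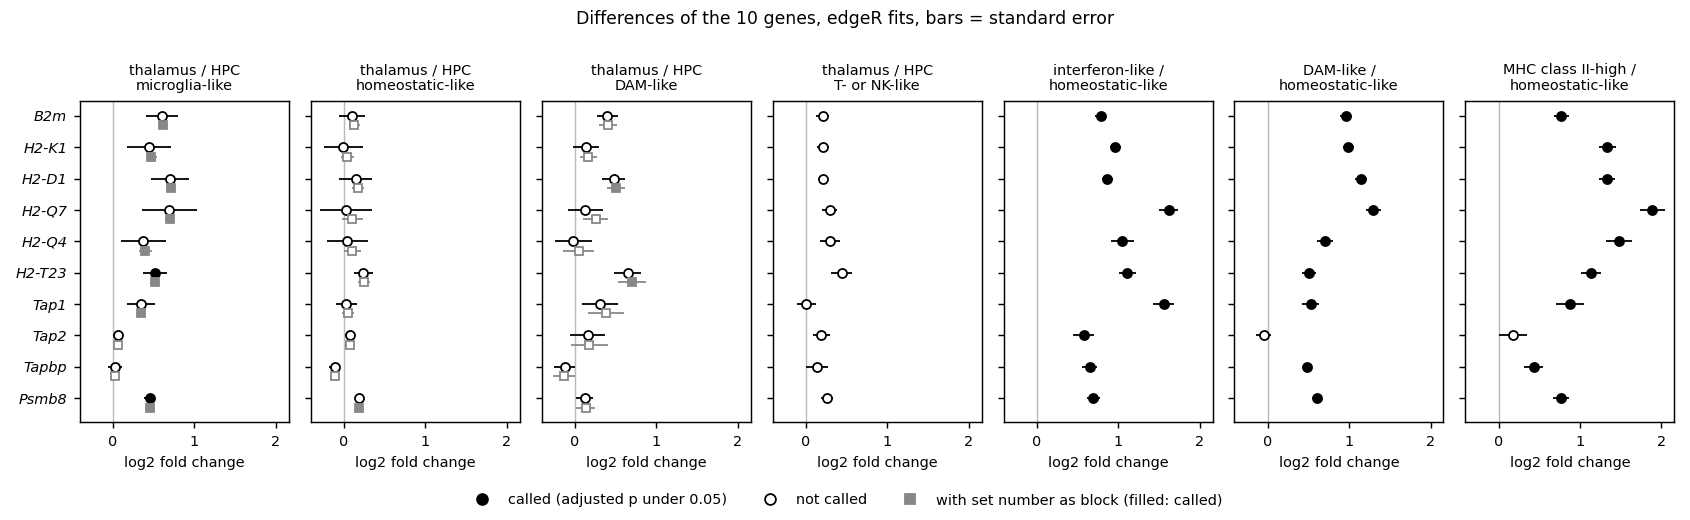
Log2 fold change with its SE (horizontal axis) of the 10 class I genes, 1 panel for each of the 4 region comparisons (thalamus over HPC) and the 3 comparisons of a microglial state with homeostatic-like cells; filled symbols passed an adjusted p of 0.05, open symbols did not, and grey squares give the region fit with the set number as a block. All 10 symbols are filled for interferon-like cells and 9 for DAM-like cells, with Tap2 open at -0.05.

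Set against each other directly, interferon-like and DAM-like microglia differed in the transporter genes and in some heavy chains. This comparison was added after the data had been seen. Tap1 was higher in interferon-like cells by 1.03 on the log2 scale (SE 0.15, adjusted p = 3.8e-07), H2-T23 by 0.65 (SE 0.13, adjusted p = 8.74e-05) and Tap2 by 0.66 (SE 0.15, adjusted p = 0.000519). These 3 calls held under all 16 alternatives. H2-Q4 was also called higher, by 0.38 (adjusted p = 0.0443), and H2-D1 lower, by -0.25 (adjusted p = 0.0245), but H2-Q4 lost its call under 10 alternatives and H2-D1 under 8. The remaining genes did not pass, with log2 differences of -0.16 for B2m, -0.01 for H2-K1, 0.31 for H2-Q7, 0.12 for Psmb8 and 0.19 for Tapbp and SEs of 0.08 to 0.13. Over the 5481 genes tested, 17.8% were called higher and 18.3% lower in interferon-like cells.

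Microglia carrying both signatures had the highest mean B2m level of the states, in the 3 thalamic sets with at least 20 such cells. B2m measured 52.8, 49.7 and 60.2 UMIs per 10000 in thalamus sets 1, 3 and 4. H2-Q7 measured 4.30, 2.13 and 5.15, H2-K1 25.4, 17.3 and 26.3, and Psmb8 4.34, 5.01 and 4.68. For B2m and Psmb8 each of these lay above every DAM-like and every interferon-like value. Tap1 reached 1.29, 1.19 and 1.31, a range that overlapped with interferon-like cells (up to 1.24), and Tap2 0.835, 0.564 and 0.702, within the range of interferon-like and DAM-like cells together. HPC sets held 1 to 7 such cells, so the state was not compared between regions and no test was run. In the thalamus, double-positive cells also had more Malat1-poor cells, 35.3% on average against 20.9% in DAM-like and 2.11% in interferon-like cells. Their DAM markers averaged 249 per 10000 against 176 in DAM-like cells, and their MHC class II markers 15.5 against 3.41 in DAM-like and 2.06 in interferon-like cells. DAM-like and interferon-like cells had to hold under 20 MHC class II marker UMIs per 10000, and double-positive cells had no such limit. The class II gap was thus set in part by the limits. The part of these differences in the levels was not tested.

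Levels of most class I genes were also read over bins of marker content, as a description without a test. The bins held all microglia-like cells, with cycling, MHC class II-high and Malat1-poor cells included. With interferon markers at 0, B2m averaged 17.9 ± 4.04 UMIs per 10000 (SD, n = 8 sets). It averaged 20.7, 25.3, 29.0 and 32.5 in the following bins, up to 5, 10, 20 and 40 interferon marker UMIs per 10000, and 46.1 ± 14.8 (SD, n = 4 sets) between 40 and 80. That last bin held 3 thalamic sets, with a mean of 52.3, and 1 HPC set at 27.2, so region and marker content cannot be told apart in it. Over the same bins Tap1 went from 0.326 to 1.2, H2-Q7 from 0.734 to 3.63, Psmb8 from 1.90 to 4.33 and Tap2 from 0.531 to 0.891. In the last bin the thalamic mean and the HPC set were at 4.38 and 1.37 for H2-Q7 and 4.82 and 2.88 for Psmb8, but at 1.19 and 1.22 for Tap1. Tap1 and H2-Q7 were higher in each of these bins than in the one before, and Tap2 stayed at 0.531 until the interferon markers passed 5.

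Over DAM marker bins the genes spread apart. From cells with fewer than 10 DAM marker UMIs per 10000 to those with 240 or more, B2m went from 14.3 to 53.0, H2-D1 from 6.44 to 28.6, H2-K1 from 5.93 to 21.4, H2-Q7 from 0.583 to 3.67 and Psmb8 from 1.68 to 4.23. Tap1 went from 0.396 to 0.740 and Tapbp from 1.12 to 1.47, while Tap2 was 0.518 in the first bin and 0.526 in the last. The last bin came from 714 cells of the 4 thalamic sets, as no HPC set had 20 such cells.

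Marker bins of one kind were also read with the other kind held low. Among microglia-like cells with fewer than 5 interferon marker UMIs per 10000, B2m averaged 13.4 ± 2.23 in the lowest DAM bin (SD, n = 8 sets) and 45.5 ± 2.36 in the highest (SD, n = 4 thalamic sets, 276 cells). H2-D1 went from 5.86 to 26.5, H2-K1 from 5.42 to 16.7, H2-Q7 from 0.498 to 2.47 and Psmb8 from 1.59 to 3.61. B2m and the classical heavy chains thus had higher levels with more DAM markers also where interferon markers were few. Malat1-poor cells, on average 20.9% of thalamic DAM-like and 0.134% of thalamic homeostatic-like cells, were not left out of these bins. Their part in these levels was not tested. Tap1 was 0.365 ± 0.091 and 0.551 ± 0.255, and Tap2 0.522 and 0.556, in the same bins. Among cells with fewer than 40 DAM marker UMIs per 10000, Tap1 went from 0.317 ± 0.039 with no interferon marker UMI to 0.892 ± 0.189 at 20 to 40 (SD, n = 8 and 6 sets). Over that span B2m went from 15.9 to 26.5, H2-T23 from 0.683 to 1.39 and Tap2 from 0.557 to 0.798.

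**Figure D3:**
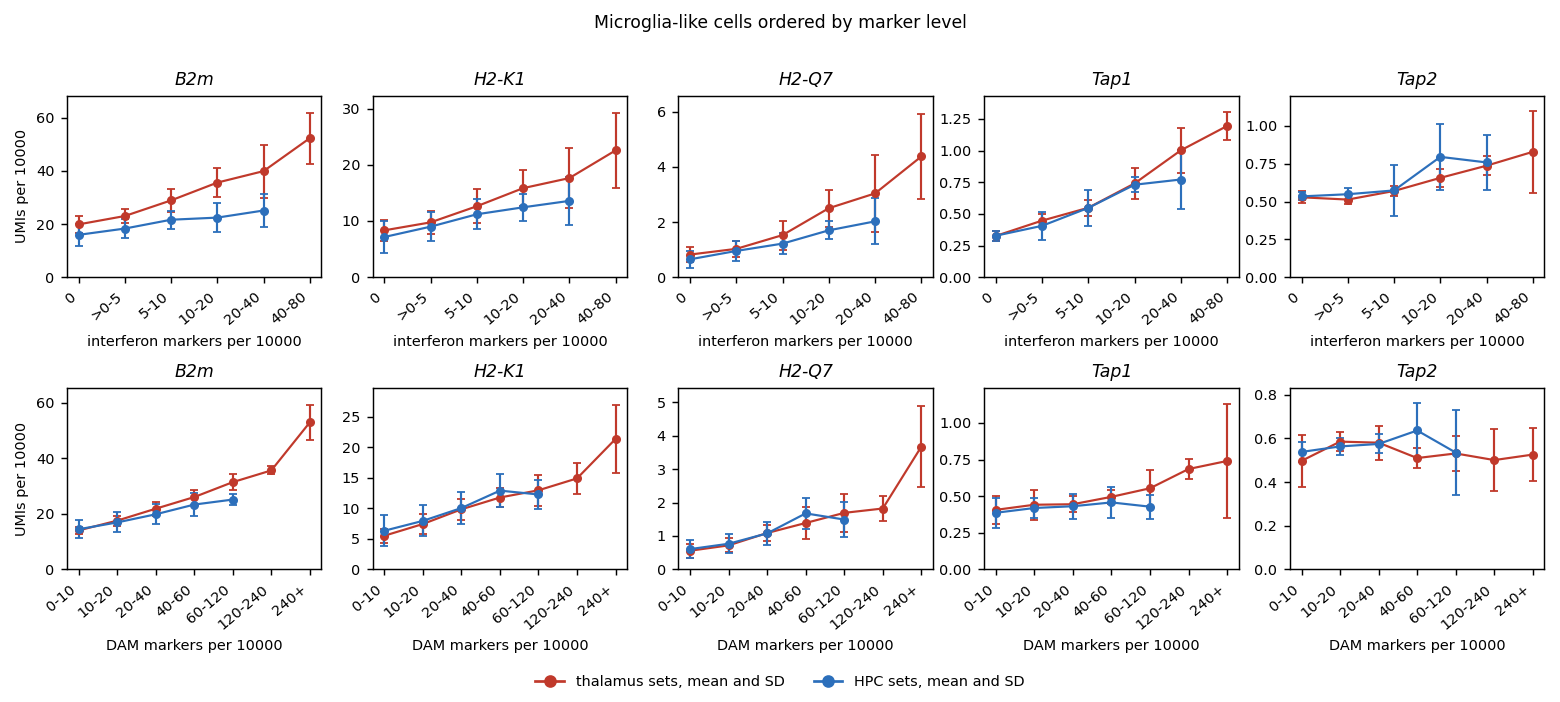
UMIs per 10000 (vertical axis) of B2m, H2-K1, H2-Q7, Tap1 and Tap2 over bins of interferon markers (top) and DAM markers (bottom) in microglia-like cells. Points are means over the sets of a region (thalamus red, HPC blue) and bars 1 SD, for bins with at least 3 sets. In the thalamus B2m goes from 14.0 to 53.0 over DAM markers, while Tap2 is 0.497 in the first bin and 0.526 in the last. DAM bins from 120 up show the thalamus alone.

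Between regions, thalamic microglia-like cells had higher Psmb8 and H2-T23 than those of the HPC, and most other class I genes leaned the same way without passing. Psmb8 measured 2.59, 2.43, 2.23 and 2.52 UMIs per 10000 in thalamus sets 1 to 4 and 1.89, 1.85, 1.85 and 1.88 in HPC sets 1 to 4. Every thalamic set lay above every HPC set, and the log2 difference was 0.45 (SE 0.07, adjusted p = 0.00313). The call of Psmb8 held under all 16 alternatives, with adjusted p from 2.76e-07 to 0.0157. H2-T23 measured 1.02, 0.911, 0.784 and 1.17 in thalamic sets and 0.793, 0.704, 0.568 and 0.772 in HPC sets. The regions overlapped for H2-T23 through thalamus set 3 and HPC set 1, and its difference of 0.52 (SE 0.15, adjusted p = 0.044) no longer passed when thalamus set 1, 2 or 4 or HPC set 2, 3 or 4 was left out, or without Malat1-poor cells (adjusted p = 0.0737).

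B2m and the classical heavy chains varied as much between sets as between regions. B2m measured 31.5, 23.9, 20.2 and 27.2 in thalamic sets and 23.5, 16.7, 14.0 and 16.5 in HPC sets, where set 1 reached the level of thalamus set 2. H2-D1 measured 16.7, 14.2, 9.55 and 14.9 against 12.2, 8.26, 6.14 and 9.08. H2-K1 measured 14.0, 11.01, 7.26 and 12.0 against 12.4, 7.36, 5.69 and 8.46. In each of these genes thalamus set 3 lay below HPC set 1, and the log2 differences of 0.60 for B2m (SE 0.20, adjusted p = 0.0722), 0.69 for H2-D1 (SE 0.23, adjusted p = 0.0767) and 0.44 for H2-K1 (SE 0.27, adjusted p = 0.294) did not pass. Nor did H2-Q7 (0.69, SE 0.34), H2-Q4 (0.37, SE 0.28), Tap1 (0.34, SE 0.17), Tap2 (0.06, SE 0.06) or Tapbp (0.03, SE 0.09).

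Thus 2 of the 10 genes were called higher in the thalamus, where 8.99% of the 12998 genes tested were called higher, and 4 had an unadjusted p under 0.05. The share of all genes at that unadjusted limit was not counted, here or in the comparisons below. For 1 of the 10 genes the regions did not overlap, beside 8.58% of genes tested. The median log2 difference was 0.45 for the 10 genes and -0.02 over all genes. With the set number as a block, 8 of the 10 genes were called higher (background 16.6%): B2m by 0.61 (adjusted p = 6.15e-05), H2-D1 by 0.71 (2.21e-05), H2-K1 by 0.47 (0.000627), H2-Q7 by 0.70 (2.83e-05), H2-Q4 by 0.40 (0.0058), H2-T23 by 0.51 (6.35e-05), Psmb8 by 0.45 (3.18e-05) and Tap1 by 0.34 (0.000722). The thalamic value exceeded that of the same-numbered HPC set in 4 of 4 pairs for these 8 genes, in 3 for Tap2 and in 0 for Tapbp, whose fitted sign turned under another scaling. Without HPC set 1, 6 genes were called (background 13.4%): B2m, H2-D1, H2-K1, H2-Q7, H2-T23 and Psmb8.

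The mix of states differed between the regions in the same libraries. DAM-like cells made up 32.1%, 12.6%, 16.5% and 15.8% of microglia-like cells in thalamus sets 1 to 4 and 5.12%, 1.36%, 1.23% and 1.83% in HPC sets 1 to 4. Summed interferon markers in microglia-like cells were 8.87, 4.12, 4.94 and 6.60 per 10000 in thalamic sets and 4.24, 2.32, 2.25 and 3.70 in HPC sets. Malat1-poor cells were 5.21% to 15.8% of microglia-like cells in the thalamus and 0.256% to 1.85% in the HPC. T cell markers were 0.333 to 0.368 per 10000 in thalamic and 0.163 to 0.185 in HPC microglia-like cells. The part of T cell markers and Malat1-poor cells in the H2-T23 result was not tested beyond the fit without Malat1-poor cells.

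Within homeostatic-like cells the region difference was small for most class I genes. None of the 10 passed by edgeR's quasi-likelihood test (background 0.798% of 12037 genes), 1 had an unadjusted p under 0.05, 0 passed by DESeq2, and the median log2 difference was 0.06. Psmb8 measured 1.93, 2.06, 1.94 and 2.05 in thalamic sets and 1.74, 1.75, 1.78 and 1.75 in HPC sets. Its regions did not overlap, and the log2 difference of 0.19 (SE 0.05) had an adjusted p of 0.0899 without the set number as a block and 0.0201 with it (1 gene called, background 4.13%). The share of all genes without overlap was not counted in homeostatic-like cells. Without HPC set 1, Psmb8 also passed, with a difference of 0.20 (adjusted p = 0.0259). B2m differed by 0.10 (SE 0.16) and H2-K1 by -0.01 (SE 0.24), and HPC set 1 had the highest value of all 8 sets for B2m, H2-K1, H2-D1 and H2-Q7.

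Within DAM-like cells none of the 10 passed by edgeR (background 0.838% of 8952 genes) or by DESeq2, and 3 had an unadjusted p under 0.05. H2-T23 measured 1.10, 1.07, 0.809 and 1.02 in thalamic sets and 0.645, 0.565, 0.579 and 0.773 in HPC sets, with no overlap and a log2 difference of 0.65 (SE 0.17, adjusted p = 0.0618). B2m also did not overlap between the regions, with 28.2 as the lowest thalamic and 28.0 as the highest HPC value, and differed by 0.40 (SE 0.13, adjusted p = 0.17). The share of all genes without overlap was not counted in DAM-like cells, so these 2 genes have no background. H2-D1 differed by 0.48 (SE 0.14, adjusted p = 0.126). With the set number as a block, H2-D1 (0.51, adjusted p = 0.0104) and H2-T23 (0.70, adjusted p = 0.0314) were called, beside 1.05% of all genes. The same 2 genes passed without thalamus set 3, and H2-D1 passed without HPC set 1. Thalamic DAM-like cells also carried more DAM markers than those of the HPC, 176 against 110 per 10000 on average. In cells with 60 to 120 DAM marker UMIs per 10000, B2m averaged 31.4 ± 2.97 in the thalamus and 25.2 ± 1.98 in the HPC (SD, n = 4 sets each). Below 10 DAM marker UMIs it averaged 14.0 ± 1.30 and 14.5 ± 3.16 in the same order.

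Whether the step from homeostatic-like to DAM-like cells was larger in the thalamus was tested as an interaction. None of the 10 genes passed by edgeR (background 0.468% of 11101 genes called higher) or by DESeq2, and 4 had an unadjusted p under 0.05. The estimate was positive for all 10 genes with a median of 0.30, beside 0.05 over all genes tested. The largest were H2-T23 at 0.56 (SE 0.18, adjusted p = 0.226), Tap1 at 0.46 (SE 0.23, adjusted p = 0.624) and H2-D1 at 0.43 (SE 0.11, adjusted p = 0.0516). Psmb8 was at 0.01 and turned negative under other scalings. With a stricter marker gate 4 genes passed (B2m 0.77, H2-D1 0.96, H2-K1 0.84 and H2-Q7 1.49, beside 0.395% of 10135 genes tested), and without HPC set 4 H2-D1 passed (adjusted p = 0.0478).

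Among the cell classes, T-like cells had more H2-K1, H2-Q7 and Psmb8 than microglia-like cells, while B2m was level. H2-Q7 measured 5.50 to 8.66 UMIs per 10000 in T-like cells of the 8 sets (median 6.55) and averaged 1.12 ± 0.478 in microglia-like cells. No T-like set overlapped with a microglia-like set, and the ratio was 5.94-fold. Psmb8 averaged 8.05 ± 0.918 against 2.15 ± 0.325 (3.63-fold), and H2-K1 24.8 ± 2.78 against 9.78 ± 2.98 (2.62-fold). H2-Q4 was 2.45-fold, Tap1 2.16-fold, Tap2 1.92-fold, H2-D1 1.72-fold and H2-T23 1.61-fold higher in T-like cells. Each of these 8 was higher in 8 of 8 sets (exact two-sided sign-flip test over sets, p = 0.00781, the smallest that 8 sets can give, unadjusted over 10 genes). B2m averaged 20.9 ± 2.54 in T-like and 21.7 ± 5.95 in microglia-like cells (0.991-fold, exact p = 0.875), and Tapbp 1.39 ± 0.175 and 1.26 ± 0.102 (exact p = 0.0703). This set of pairs was chosen after the data had been seen. The share of all genes that differ in this way between the 2 classes was not counted, so the 8 have no background.

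The balance of heavy chain to light chain RNA differed by class, in a way that depended on the heavy chain. H2-K1 was 0.358 to 0.528 of B2m in microglia-like cells, 1.10 to 1.37 in T-like cells, 0.524 to 0.661 in border-associated macrophage-like (BAM-like) cells and 0.330 to 0.549 in neutrophil-like cells. Among the microglial states the ratio was 0.352 to 0.522 in homeostatic-like, 0.327 to 0.594 in DAM-like, 0.396 to 0.673 in interferon-like and 0.515 to 0.894 in MHC class II-high cells. For H2-D1 the ratio to B2m was 0.439 to 0.595 in microglia-like and 0.825 to 1.02 in T-like cells. It was 0.568 to 0.874 in BAM-like and 0.856 to 1.18 in neutrophil-like cells. Neutrophil-like cells thus lay near microglia-like cells for H2-K1 but near T-like cells for H2-D1. These are ratios of UMIs not scaled by gene length, and no test was run on them.

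In the order of levels among microglia-like, BAM-like, neutrophil-like and T-like cells, T-like cells came first for H2-K1, H2-D1, H2-Q7, H2-Q4, H2-T23, Tap1, Tap2 and Psmb8. H2-K1 averaged 25.4 in T-like, 14.3 in BAM-like and 10.9 in microglia-like cells and 5.62 in neutrophil-like cells, over 6 sets for each neighbouring pair. For B2m, BAM-like, microglia-like and T-like cells did not differ beyond their spread (BAM-like 23.4 and microglia-like 23.8 over the same 6 sets), and neutrophil-like cells lay lowest at 12.6, below T-like cells in 6 of 6 sets. Of 24 neighbouring pairs, 10 reached the smallest p the exact test allows (0.03125 for 6 sets and 0.0078125 for 8) and 0 passed after adjustment, with 0.075 as the lowest adjusted p, so no order of neighbours was established at this number of sets. For H2-D1, neutrophil-like (12.2) and microglia-like (12.6) cells did not differ beyond their spread. In CD8-positive T-like cells H2-Q7 measured 7.88 to 10.9 over the 4 sets with at least 20 such cells, and in CD4-positive T-like cells 5.44 to 7.59 over 7 sets. Dendritic-like cells had Psmb8 levels of 8.26 to 10.3 in 4 sets and monocyte-like cells of 7.26 to 8.73 in 3 sets, beside the T-like mean of 8.05.

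**Figure D4:**
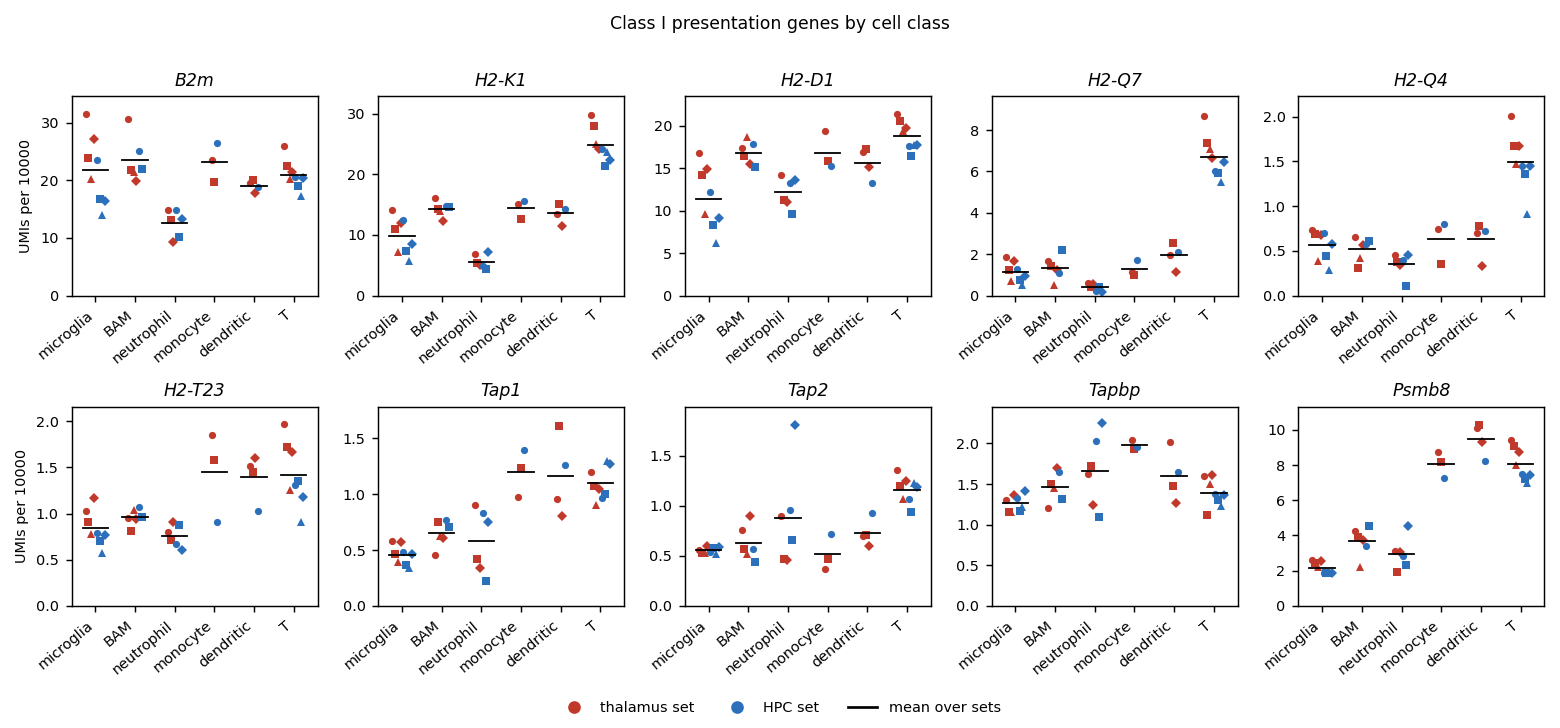
UMIs per 10000 (vertical axis) of the 10 class I genes in microglia-like, BAM-like, neutrophil-like, monocyte-like, dendritic-like and T-like cells; points are tagged sets with at least 20 cells of the class (thalamus red, HPC blue) and lines means over sets. T-like cells stand above microglia-like cells in every set for H2-Q7, with means of 6.70 and 1.12, and level with them for B2m, with means of 20.9 and 21.7.

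T- or NK-like cells gave a region comparison outside the microglial lineage. None of the 10 genes passed by edgeR (background 0.0969% of 9289 genes), 7 had an unadjusted p under 0.05, 0 passed by DESeq2, and all 10 estimates were positive with a median of 0.21. The share of all genes at the unadjusted limit was not counted, so the count of 7 has no background. H2-D1 measured 21.3, 20.6, 19.5 and 19.8 UMIs per 10000 in thalamic sets and 17.7, 16.6, 17.7 and 17.6 in HPC sets, a log2 difference of 0.21 (SE 0.06, adjusted p = 0.302). Psmb8 measured 9.32, 9.04, 7.75 and 8.71 against 7.30, 7.12, 6.99 and 7.34 (0.26, SE 0.07, adjusted p = 0.301). For H2-D1, Psmb8, H2-K1, H2-Q7 and H2-Q4 every thalamic set lay above every HPC set, a pattern found in 2.98% of the genes tested. Interferon markers in these cells averaged 12.2 per 10000 in thalamic sets and 6.55 in HPC sets, DAM markers 9.70 and 3.58, and their median depth was 3393.6 and 4000.75 UMIs per cell, and the part of these in the result was not tested. HPC set 3 held 34 T- or NK-like cells.

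Other genes of the route came from a list of 56, of which 54 were counted. In the region comparison of microglia-like cells 8 of the 44 tested were higher in the thalamus and 1 was lower. The proteasome list took 5 of the 8 higher calls: Psmb6 (0.70, adjusted p = 0.00031), Psmb5 (0.39, adjusted p = 0.00259) and Psmb7 (0.33, adjusted p = 0.00684), the constitutive catalytic subunits, Psme2 of the 11S activator (0.46, adjusted p = 0.00931) and Psmb10 of the immunoproteasome (0.31, adjusted p = 0.00328). Psmb9, the immunoproteasome gene next to Tap1, was at 0.20 and did not pass (adjusted p = 0.277), and 0 of 9 further heavy chain genes passed. Lilrb4a, an inhibitory receptor of myeloid cells, was higher by 1.96 (SE 0.35, adjusted p = 0.00725). Lnpep, an endosomal aminopeptidase, was lower by -0.20 (adjusted p = 0.0205).

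Of the other proteasome genes, 3 of 7 were called higher and 1 lower in interferon-like than in DAM-like cells. Psmb6, which PSMB9 replaces in the immunoproteasome, rose by 1.26 in DAM-like and 0.33 in interferon-like cells against homeostatic-like cells, and was lower by -0.93 in interferon-like than in DAM-like cells (adjusted p = 3.06e-08). Psmb9 rose by 0.21 in DAM-like and 0.99 in interferon-like cells, with 0.79 between interferon-like and DAM-like cells (adjusted p = 2.02e-06). Psmb8 had a log2 difference of 0.12 that did not pass between interferon-like and DAM-like cells (adjusted p = 0.385). Psmb5, the counterpart of Psmb8, rose by 0.60 in DAM-like cells and was at 0.26 in interferon-like cells without passing (adjusted p = 0.213), and the direct difference of -0.29 did not pass (adjusted p = 0.116). Psmb7 rose by 0.49 in DAM-like cells and was at 0.16 in interferon-like cells (adjusted p = 0.612), with a direct difference of -0.28 that did not pass (adjusted p = 0.185). Psmb10 rose by 0.40 and 0.76, and was higher in interferon-like than in DAM-like cells by 0.34 (adjusted p = 0.0396). The activator genes Psme1 and Psme2 rose in both states, by 0.69 and 0.88 in DAM-like and 0.97 and 1.10 in interferon-like cells.

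Of the other loading genes, 7 were tested between the interferon-like and DAM-like states, of which 3 were called lower and 1 higher in interferon-like cells. Calr, which encodes calreticulin, rose by 0.90 in DAM-like and 0.26 in interferon-like cells and was lower by -0.63 in interferon-like than in DAM-like cells (adjusted p = 7.06e-08). Pdia3, which encodes ERp57, rose by 0.53 and 0.19, with -0.33 between the 2 states (adjusted p = 0.00133). Canx, the calnexin gene, rose by 0.32 in DAM-like cells and was at 0.09 in interferon-like cells (adjusted p = 0.537). Erap1, which trims peptides, passed in neither, at -0.11 and 0.24. Nlrc5, the transactivator of class I genes, rose by 0.85 in DAM-like, 2.53 in interferon-like and 1.42 in MHC class II-high cells, and was 1.62 higher in interferon-like than in DAM-like cells (adjusted p = 4.55e-12). Irf1, a transcription factor induced by interferons, rose by 1.07 in interferon-like and 1.01 in MHC class II-high cells but was lower in DAM-like cells, by -0.27 (adjusted p = 0.0485).

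Over the whole list, the interferon-like state had 20 higher and 1 lower of 43 tested, the DAM-like state 22 higher and 11 lower, and the MHC class II-high state 12 higher and 1 lower, all against homeostatic-like cells. Over all genes tested, 7.81%, 25.1% and 5.73% were called higher and 4.81%, 21.9% and 3.62% lower in the same order, so the lower calls in DAM-like cells are near the background. The median log2 change of the list was 0.21, 0.21 and 0.17 in that order, beside -0.02, -0.01 and -0.02 over all genes tested. Among the heavy chain and class I-like genes outside the 10, 5 of 9 were higher and 0 lower in interferon-like cells, while in DAM-like cells 4 were higher and 4 lower. The proteasome list had 7 of 8 genes higher in DAM-like and 5 of 8 in interferon-like cells. The transcription list had 6 of 12 higher and 0 lower in interferon-like cells and 4 higher and 4 lower in DAM-like cells. Between interferon-like and DAM-like cells, 14 of 34 were higher in the interferon-like state and 5 lower.

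The 10 genes did not follow one another equally. Over 34 sums by set and microglial state, which share libraries and depth, the correlation (Pearson) of each gene with the mean of the other 9 was 0.94 for H2-Q7, 0.92 for H2-K1, 0.87 for H2-D1 and H2-T23, 0.85 for Psmb8, 0.83 for B2m, 0.78 for Tap1 and H2-Q4, 0.57 for Tapbp and 0.32 for Tap2. Outside the 10 genes, those whose pattern was most like their mean among 6941 genes compared were Lgals3bp (r = 0.893), Psme1 (0.887), Selenow (0.872), Ms4a6c (0.865) and H2-T22 (0.842). These correlations describe the 34 sums and carry no test.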

How the data were processed

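CD45+ cells of the thalamus and HPC were profiled with the 10x Genomics 3′ chemistry. The authors deposited raw UMI counts per gene and cell in 8 matrices, made per the file headers with Cell Ranger 7.1.0, while the study's methods name an earlier version. The submitters' notes name genome build mm10 (GRCm38). Whether intronic or antisense reads were counted is not given in the sources used here. Cells with 200 to 7500 genes and at most 2% mitochondrial UMIs were kept. Tags remove doublets between sets only, so an alternative left out the top 5% of cells by UMIs.

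Cell classes and states were cut by summed markers per 10000 UMIs (microglia at 40, T cells at 10, DAM at 60, interferon at 20, MHC class II at 20, homeostatic at 60). 1 marker was not analysed here. Counts were summed per set and class (at least 20 cells) and tested with edgeR 4.0.16 in R 4.3.3 (quasi-likelihood F-test, TMM factors, filterByExpr), p-values being adjusted by Benjamini-Hochberg across every gene in the fit, and 0.05 was the threshold. State comparisons had the set as a block. Class levels were compared with exact sign-flip tests (scipy 1.17.1) on log2 values with a pseudocount of 0.1. DESeq2 1.42.0, upper-quartile factors, other filters and gates, and leaving out each set were alternatives. The fitting code was tested on simulated data.

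The 10 genes, the markers and the lists were chosen with earlier results of these data known. All 10 genes were named whatever their values. Of the pathway list, the called genes with the largest region difference in microglia-like cells (up to 5 in each direction) and 12 further genes, whatever their values, were named. The 5 genes most like the mean of the 10 were ranked by Pearson's r. Irf1 was named after its values were seen. Set numbers were checked as pairs: in microglia-like cells, deviations from the region means correlated between same-numbered sets at 0.687, 0.268, 0.744 and 0.401 over 7028 genes, all above 0.1, and in homeostatic-like cells at 0.620, 0.133, 0.616 and 0.262. The pairing was read from the data, since the labels do not say what a number marks. It was not clear for set 2. Thalamus set 3 correlated with HPC set 2 at 0.349 in microglia-like and 0.222 in homeostatic-like cells. These values lay above the 0.268 and 0.133 of the sets numbered 2. The fits with the set number as a block thus rest on a pairing that is uncertain for set 2. The p-values measure the spread between tagged sets. In bulk sums, fewer cells of a type and less RNA per cell cannot be told apart.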

Additional observations from a re-analysis of the deposited data

Results flagged for a closer look

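In groups of 4 sets, a set was picked out where its gap to the nearest other set was, as a share of the group's whole range, above Dixon's 95% critical value. Of 100 groups of a gene, state and region examined, 8 held such a set, where chance gives about 1 in 20. H2-Q4 was low in thalamus set 3, at 0.311 UMIs per 10000 in homeostatic-like cells against 0.47 to 0.489 in the other sets, and at 0.411 in DAM-like cells against 0.67 to 0.718. Tap2 was also low in the DAM-like cells of thalamus set 3, at 0.393 against 0.492 to 0.509. In interferon-like cells, H2-T23 was high in HPC set 2, at 1.72 against 1.34 to 1.4, and Tapbp in thalamus set 1, at 2.06 against 1.34 to 1.42. In T- or NK-like cells, H2-D1 was low in HPC set 2, at 16.6 against 17.6 to 17.7, H2-Q4 in HPC set 3, at 0.906 against 1.41 to 1.46, and Tapbp in thalamus set 2, at 1.11 against 1.6 to 1.62.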

How the results depend on the processing

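The state comparisons kept their counts best: 10 class I genes for interferon-like against homeostatic-like cells and 9 for DAM-like cells under 16 alternatives each, and 8 to 9 for MHC class II-high cells under 14. Region counts depended on the processing, and the cause was not tested beyond what each alternative leaves out. The share of all genes called is given above for the block fits in microglia-like, homeostatic-like and DAM-like cells. It is also given for microglia-like cells without HPC set 1 and for the interaction with the stricter gate. For the other alternatives no such share is given, so their counts have no background. In microglia-like cells (2 genes called) the count was 1 without Malat1-poor cells, 4 without a filter on low counts, 8 with the set number as a replicate block, and 1 to 6 when 1 set was left out, with 6 without HPC set 1. In homeostatic-like cells (0) it was 1 with the block and 0 to 1 with a set left out. In DAM-like cells (0) it was 1 with mitochondrial shares up to 5%, 3 without a filter, 2 with the block and 0 to 2 with a set left out. In T- or NK-like cells (0) it was 2 with the block, namely H2-T23 (0.49, adjusted p = 0.00756) and Psmb8 (0.27, adjusted p = 0.0415); there same-numbered sets correlated at 0.287, 0.025, 0.009 and 0.337 over 6853 genes, so the numbers were not taken as pairs. For the interaction (0) it was 4 with the stricter gate, 1 without the top 5% of cells by UMIs, 2 without a filter and 0 to 1 with a set left out; the set was already its block, so no further paired fit was made. Between interferon-like and DAM-like cells (5) it was 3 by DESeq2, 3 with no replicate block and 3 to 5 with a set left out, with 3 without HPC set 1. Of the neighbouring class pairs (0), 2 passed with the stricter gate, and 8 genes passed between T-like and microglia-like cells, a choice made after seeing the data. The share of all genes differing between those 2 classes was not counted.

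None of the estimates that changed sign was called as reported. For Tapbp by region in microglia-like cells the log2 difference was -0.0022 without Malat1-poor cells, -0.0016 with upper-quartile factors and -0.0222 to 0.0736 with a set left out. In homeostatic-like cells the stricter gate gave -0.0295 for B2m, -0.0529 for H2-D1, -0.2209 for H2-Q7 and -0.0246 for H2-Q4, the block gave 0.042 for H2-K1, and leaving out a set gave -0.1517 to 0.3098 for H2-K1, -0.1505 to 0.4246 for H2-Q7, -0.1273 to 0.3298 for H2-Q4 and -0.0442 to 0.1629 for Tap1. In DAM-like cells the stricter gate gave -0.0125 for H2-K1 and 0.3601 for H2-Q4, for which no filter gave 0.0243 and the block 0.0469; leaving out a set gave -0.0073 to 0.2713 for H2-K1, -0.1452 to 0.2959 for H2-Q7, -0.1236 to 0.1419 for H2-Q4 and -0.045 to 0.3475 for Tap2. For Tap1 in T- or NK-like cells the values were -0.0078 without Malat1-poor cells and -0.0834 to 0.0851 with a set left out. Between DAM-like and homeostatic-like cells Tap2 was 0.008 with the stricter gate. For the interaction, Tapbp was -0.0356 with the stricter gate, Psmb8 was -0.0508 with mitochondrial shares up to 5%, -0.1043 without Malat1-poor cells, -0.0414 by DESeq2 and -0.0292 with upper-quartile factors, and leaving out a set gave -0.2322 to 0.5535 for H2-Q7, -0.4022 to 0.4537 for H2-Q4, -0.0753 to 0.3169 for Tap2 and -0.0167 to 0.04 for Psmb8. Between interferon-like and DAM-like cells H2-K1 was 0.1142 with the stricter gate, 0.0744 without Malat1-poor cells and -0.0745 to 0.0464 with a set left out.

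Scaling moved the median of all genes under DESeq2 to 0.33, 0.37 and 0.35 for interferon-like, DAM-like and MHC class II-high against homeostatic-like cells, to 0.20 between interferon-like and DAM-like cells, to -0.32 for the interaction and to -0.14 by region in DAM-like cells. The share of higher among all called genes went from 65.7% to 55.0% by region in microglia-like cells, from 53.5% to 42.0% for DAM-like and from 61.9% to 47.6% for interferon-like cells with upper-quartile factors. By DESeq2 it was 74.5% for interferon-like cells, 73.9% against 61.3% for MHC class II-high cells, 64.9% against 78.1% by region in DAM-like cells and 40% against 90% by region in T- or NK-like cells. For the interaction it was 75.4%, with 59.1% by upper-quartile factors and 63.0% by DESeq2. The DAM-like sums of HPC sets 2 to 4 held 24 to 43 cells, which limits their values for the genes of low level.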
